A study of Mus musculus with 2 samples.

Results

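The miR-99/100 and miR-125 families are small groups of related microRNAs (miRNAs), short RNAs that guide Argonaute proteins to messenger RNAs and lower their translation or stability. Their 7 members followed here are miR-99a-5p, miR-99b-5p, miR-99b-3p, miR-100-5p, miR-125a-5p, miR-125a-3p and miR-125b-5p, chosen by name, out of 1125 mature miRNAs listed in either library. All 7 were listed in both libraries. The study compared small RNA of mouse T helper cells cultured toward the Th17 state, a lineage that makes interleukin-17, with Th0 control cells, and the files hold 1 library of each. The cells of both cultures were naive CD4+CD62L+ helper T cells from spleens of female C57BL/6 mice, of an age the sources used here do not give, kept in RPMI medium with 10% foetal bovine serum. The Th17 medium held anti-CD28 (1 µg/ml), antibodies to IL-4, IFN-γ, IL-2 and IL-12 (5 µg/ml each), IL-6 and IL-23 (40 ng/ml each), IL-1β (10 ng/ml) and TGF-β (2 ng/ml), and the cells were kept for 6 to 7 days. The Th0 medium held anti-CD28 and the antibodies to IL-4 and IFN-γ at those concentrations, with no cytokine or other antibody named. The sources used here do not give the time of Th0 culture, and so time in culture and the Th17 medium cannot be told apart.

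The listed reads summed to 11975371 in the Th17 library and 8358010 in the Th0 library, so that 1 read was worth 0.0835 and 0.120 counts per 1000000 listed reads (CPM). The series states triplicates, but each file holds 1 column of reads, and the sources used here do not say how these came from the replicates. All intervals are therefore 95% intervals of counting error, the spread between cultures is unknown, and no p-value is given. All 6 T lymphocyte markers were listed, among them miR-150-5p at 12282 CPM in Th17 and 9910 CPM in Th0, and their sum was 136717 CPM in Th17 and 102303 CPM in Th0. Their ratios had 4 intervals above 1 and 2 below 1, those of miR-142a-3p (0.525, 0.514 to 0.537) and miR-342-3p (0.557, 0.550 to 0.564). Whether these miRNAs are particular to T cells was not tested here, and small RNA alone does not check the Th17 state.

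Mammals carry these miRNAs in clusters in which a miR-99/100 gene, a let-7 gene and a miR-125 gene follow one another on one strand, an arrangement shared with other animals. miR-99 and miR-100 are known to repress mTOR, a kinase that drives growth and glycolysis in activated T cells, and miR-99a has been reported to favour regulatory T cells in mice. miR-125 is the vertebrate relative of lin-4 of worms. In mice miR-125a and miR-125b are best known for expanding blood stem cells, and miR-125b has been reported to hold back the differentiation of naive human CD4+ T cells. miRNAs act mainly through their seed, bases 2 to 8 from the 5′ end, so members with one seed share many predicted targets whichever gene they come from.

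The mature sequences of all 7 members were taken from RefSeq (GRCm38.p6, the assembly of mm10) and are shown 5′ to 3′ with the seed in capitals, because the seed groups the members and the bases outside it are what tells them apart in sequencing. The first 3 share one seed and the next 2 another.
miR-99b-5p: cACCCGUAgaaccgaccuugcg
miR-99a-5p: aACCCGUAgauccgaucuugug
miR-100-5p: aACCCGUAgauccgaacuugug
miR-125a-5p: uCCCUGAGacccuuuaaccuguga
miR-125b-5p: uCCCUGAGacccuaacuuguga
miR-99b-3p: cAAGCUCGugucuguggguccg
miR-125a-3p: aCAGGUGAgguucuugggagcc

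Counted from 1 at the 5′ end of the first-named miRNA, miR-99a-5p and miR-100-5p differed at 1 of 22 bases (U16A). miR-99b-5p differed from miR-99a-5p at 4 bases (C1A, A11U, C16U and C21U) and from miR-100-5p at 4 bases (C1A, A11U, C16A and C21U). miR-125a-5p (24 bases) and miR-125b-5p (22 bases) shared their first 13 and last 5 bases and lay 3 single-base edits apart. How many mismatches were allowed, and how reads of such near-identical members were assigned, the sources used here do not say, so the split between miR-99a-5p and miR-100-5p is the least certain. The seed ACCCGUA was found in 3 of the 1679 mature miRNAs of the RefSeq table (0.179%), all of them members, and CCCUGAG in 5 (0.298%).

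The members come from 3 loci, all on the plus strand (GENCODE M21 on GRCm38). Mir99b (chr17:17830188-17830257) and Mirlet7e (chr17:17830352-17830444) lie in an intron of Spaca6, a protein-coding gene needed for sperm to fuse with the egg, and Mir125a (chr17:17830812-17830879) overlaps an annotated exon of Spaca6. These 3 hairpins start within 624 bases. Mir99a (chr16:77598936-77599000), Mirlet7c-1 (chr16:77599657-77599750) and Mir125b-2 (chr16:77646273-77646343) lie in introns of the noncoding gene Mir99ahg, with Mir125b-2 starting 47.3 kb after Mir99a. Mir100 (chr9:41531425-41531504), Mirlet7a-2 (chr9:41536716-41536811) and Mir125b-1 (chr9:41581926-41582002) lie in introns of the noncoding genes 3110039I08Rik and Gm49317, with Mir125b-1 starting 50.5 kb after Mir100. Some of these hairpins also overlap exons of other annotated genes, Mir100 that of the lincRNA Gm48742 on the other strand, Mir125b-1 that of Gm28119 and Mir125b-2 that of C130023A14Rik, both on the same strand.

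**Figure D1:**
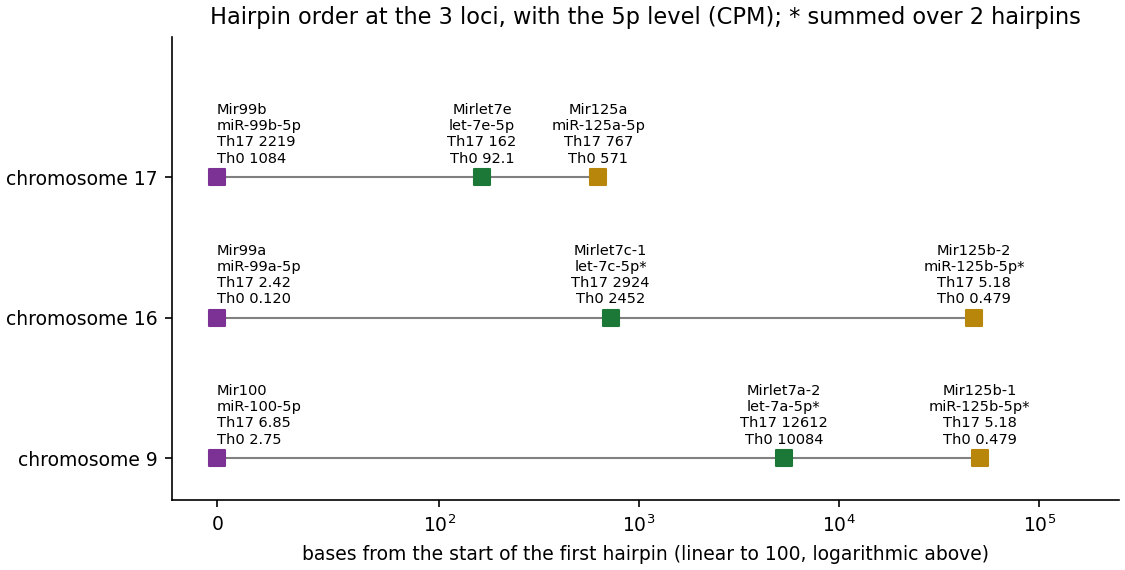
Order of the hairpins at the 3 loci, as bases from the start of the first hairpin (horizontal axis, linear to 100 and logarithmic above), with the level of each 5p miRNA in CPM in the Th17 and the Th0 library. miR-99b-5p and miR-125a-5p of chromosome 17 were between 571 and 2219 CPM, while miR-99a-5p, miR-100-5p and miR-125b-5p were below 10 CPM in both libraries; an asterisk marks a miRNA made by 2 hairpins, whose reads cannot be divided.

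Taken as a group, the 7 members held 36214 reads in Th17 and 14026 reads in Th0, or 0.302% (exact binomial interval 0.299 to 0.306%) and 0.168% (0.165 to 0.171%) of the listed reads. Their summed level was 3024 CPM in Th17 and 1678 CPM in Th0, a ratio of 1.80 (1.77 to 1.84). In a bulk sample such as these, more cells of a kind and more RNA per cell cannot be told apart. The intervals of 6 of the 7 ratios lay above 1 and that of miR-125a-3p spanned 1. The median log2 ratio of the 7 was 1.03, beside -0.080 for the 298 miRNAs that averaged 10 CPM or more over both libraries and -0.033 for all 1125. Among all 1125 the interval lay above 1 for 16.2% and below 1 for 19.6%. These shares depend on depth, and the 1125 include miRNAs averaging below 1 CPM, where no member lies. Only 3 of the 7 (miR-99b-5p, miR-99b-3p and miR-125a-5p) passed that 10 CPM minimum, with log2 ratios of 1.03, 0.459 and 0.426. The median of the 7 thus also rests on members outside the 298. At least 2-fold higher in Th17 were 1 of these 3, where the share among the 298 was 6.71%, and none was at least 2-fold lower, where the share was 13.1%. These shares stand for 20 miRNAs higher and 39 lower, and with totals that leave out the 10 most abundant miRNAs they were 15 higher and 49 lower of 299. All 3 intervals lay above 1, as did those of 40.6% of the 298, and 47.7% of the 298 lay below 1. With the totals that leave out the 10 most abundant, the interval of miR-99b-3p spanned 1 (ratio 1.26, 0.983 to 1.61), so that 2 of the 3 and 5 of the 7 lay above 1. Without the minimum 4 of the 7 members were at least 2-fold higher and 0 at least 2-fold lower, beside 23.9% and 23.4% of the 1125.

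**Figure D2:**
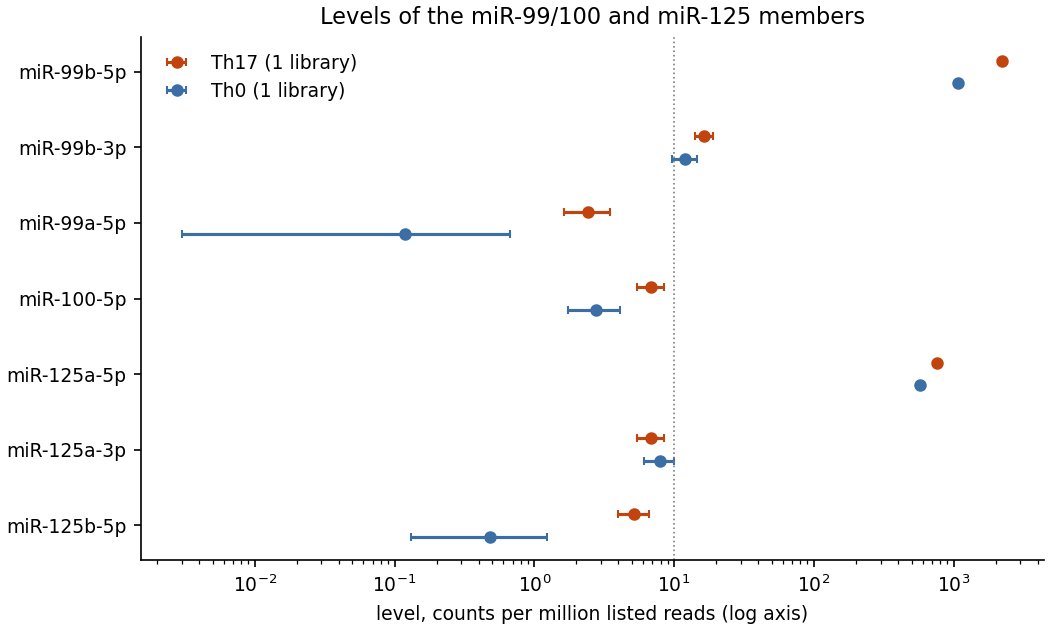
Level of each member in CPM (log axis) in the Th17 and the Th0 library, with exact Poisson 95% intervals of counting error; the dotted line is the 10 CPM minimum. Th17 lies to the right of Th0 for 6 members with miR-125a-3p the exception, and the chromosome 17 guide strands miR-99b-5p and miR-125a-5p lie far to the right of the rest.

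miR-99b-5p, the guide strand of the chromosome 17 cluster, was the most abundant member. It had 26577 reads in Th17 and 9059 reads in Th0, which is 2219 CPM (2193 to 2246) in Th17 and 1084 CPM (1062 to 1106) in Th0. The ratio was 2.05 (2.00 to 2.10), and 17 of the 298 miRNAs had a higher one. It ranked 42nd by reads in Th17 and 68th in Th0. It made up 99.6% of the 5p reads with the miR-99/100 seed in Th17 (99.5 to 99.7%) and 99.7% in Th0 (99.6 to 99.8%). The reads available to that seed were therefore almost wholly those of 1 gene, and their sum gave the same ratio to 3 digits, 2.05 (2.00 to 2.10). The call of 2-fold rests on the scaling: without the 10 most abundant miRNAs in the totals the ratio of miR-99b-5p was 1.87.

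miR-125a-5p, which derives from the same cluster, was higher in Th17 by less. It had 9185 reads in Th17 and 4773 reads in Th0, or 767 CPM (751 to 783) in Th17 and 571 CPM (555 to 588) in Th0. The ratio was 1.34 (1.30 to 1.39), with 70 of the 298 miRNAs above it. Its ranks were 80th in Th17 and 90th in Th0. let-7e-5p, the let-7 member between these 2 genes, was at 162 CPM (155 to 169) in Th17 and 92.1 CPM (85.7 to 98.9) in Th0, a ratio of 1.76 (1.62 to 1.91).

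The 3 guide strands of the chromosome 17 cluster thus had different ratios although their hairpins lie within 1 intron and exon of Spaca6. Ratios of reads within a library do not depend on the scaling between libraries. There were 2.89 reads of miR-99b-5p per read of miR-125a-5p in Th17 and 1.90 in Th0, and the quotient of these was 1.52 (1.46 to 1.59). There were 13.7 reads of miR-99b-5p per read of let-7e-5p in Th17 and 11.8 in Th0, a quotient of 1.16 (1.07 to 1.27). For miR-125a-5p there were 4.73 reads per let-7e-5p read in Th17 and 6.20 in Th0, a quotient of 0.764 (0.697 to 0.837). None of these 3 counting intervals held 1, and the last quotient follows from those before it. Such intervals are common at this depth. Among the 298 miRNAs the interval of the ratio lay above 1 for 40.6% and below 1 for 47.7%. The share over other pairs of miRNAs was not computed. The order of abundance was the same in both libraries, with miR-99b-5p first, miR-125a-5p next and let-7e-5p last. Levels of different miRNAs also carry the ligation and amplification preferences of the library chemistry, so the read ratios are not molar ratios, while their quotient compares the same pair in both libraries.

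**Figure D3:**
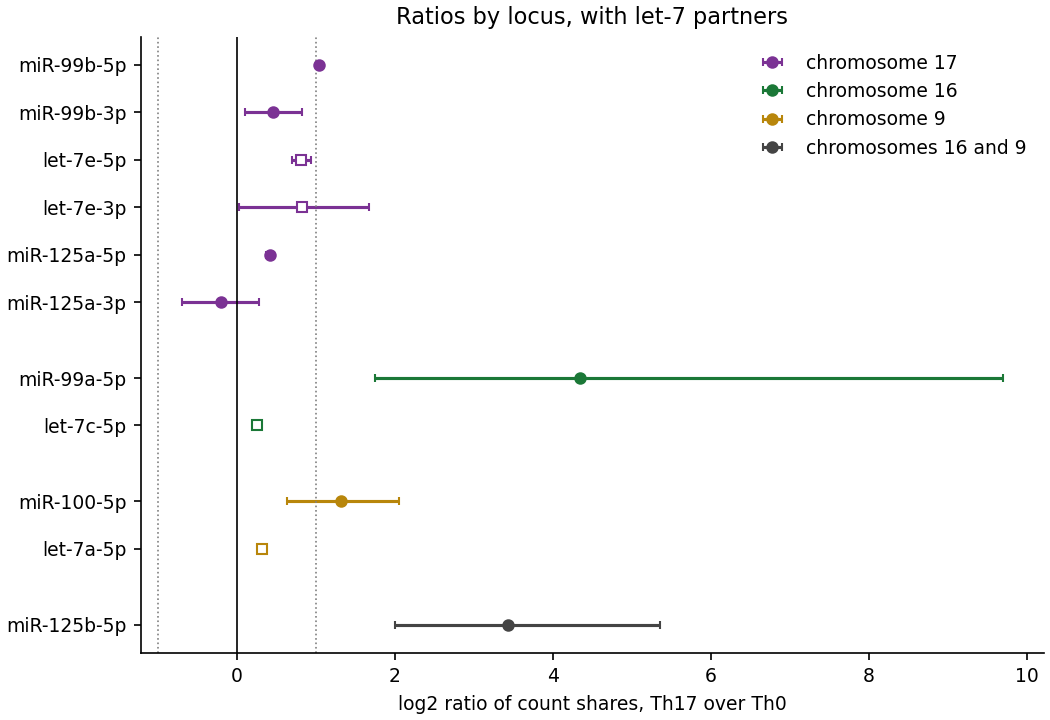
The log2 ratio of Th17 over Th0 for the members (filled circles) and their let-7 partners (open squares), grouped by locus, with 95% intervals of counting error; the dotted lines mark 2-fold. The chromosome 17 guide strands have narrow intervals at 1.03, 0.81 and 0.43, while miR-99a-5p and miR-125b-5p lie farther to the right with wide intervals.

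The passenger arms, the strands of a hairpin that are mostly degraded, were scarce. miR-99b-3p had 197 reads in Th17 and 100 reads in Th0, or 16.5 CPM (14.2 to 18.9) in Th17 and 12.0 CPM (9.73 to 14.6) in Th0, a ratio of 1.37 (1.08 to 1.77). miR-125a-3p had 82 reads in Th17 and 66 reads in Th0, or 6.85 CPM (5.45 to 8.50) in Th17 and 7.90 CPM (6.11 to 10.0) in Th0. Its ratio was 0.867 (0.619 to 1.22), so a difference was not detectable at this depth. These arms followed their guides in order, with 2.40 reads of miR-99b-3p per read of miR-125a-3p in Th17 and 1.52 in Th0, a quotient of 1.59 (1.04 to 2.42).

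The arms of Mir125a are shown in capitals within its RefSeq hairpin (chr17:17830812-17830879), the 5p arm first, because both arms of this hairpin are members.
Mir125a hairpin: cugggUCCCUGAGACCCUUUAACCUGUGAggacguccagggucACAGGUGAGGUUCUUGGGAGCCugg

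Of the reads of this hairpin 0.885% (0.704 to 1.10%) came from the 3p arm in Th17 and 1.36% (1.06 to 1.73%) in Th0. For Mir99b the 3p share was 0.736% (0.637 to 0.846%) in Th17 and 1.09% (0.889 to 1.33%) in Th0. The number of 5p reads per 3p read was 1.55 times as high in Th17 for Mir125a (1.10 to 2.17) and 1.49 times as high for Mir99b (1.16 to 1.91). For Mirlet7e between them that quotient was 0.997 (0.550 to 1.74), and its 3p share was 2.41% in both libraries. The 5p share was higher in Th17 by 0.479 points for Mir125a and by 0.356 points for Mir99b. As background, 173 hairpins, joined where they share a mature miRNA, had both arms listed and at least 100 reads in each library. Their median absolute shift was 0.508 points, so both shifts were below it. Of the 173, 85 had a smaller shift than Mir125a and 75 a smaller one than Mir99b. With 5p shares of 98.6% for Mir125a and 98.9% for Mir99b in Th0 already, these 2 shares had little room to be higher.

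The other 3 members, miR-100-5p, miR-99a-5p and miR-125b-5p, were rare in both libraries. miR-100-5p, from chromosome 9, had 82 reads in Th17 and 23 reads in Th0, or 6.85 CPM (5.45 to 8.50) in Th17 and 2.75 CPM (1.74 to 4.13) in Th0, a ratio of 2.49 (1.55 to 4.14). miR-99a-5p, from chromosome 16, had 29 reads in Th17 and 1 read in Th0, or 2.42 CPM (1.62 to 3.48) in Th17 and 0.120 CPM (0.0030 to 0.667) in Th0. On a single Th0 read the ratio was 20.2 with an interval of 3.36 to 827. miR-125b-5p, made by hairpins on both chromosomes, had 62 reads in Th17 and 4 reads in Th0, or 5.18 CPM (3.97 to 6.64) in Th17 and 0.479 CPM (0.130 to 1.23) in Th0, a ratio of 10.8 (4.02 to 40.9). A sum over these 3 was not planned, and it leaves out miR-125a-3p, the other member below 10 CPM (ratio 0.867, 0.619 to 1.22). Together these 3 miRNAs had 173 reads in Th17 and 28 reads in Th0, a ratio of 4.31 (2.88 to 6.68).

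With miR-125a-3p these miRNAs are the 4 members with a mean of 1 to 10 CPM, a range chosen after the values were seen. In that range 16.4% of 244 miRNAs were at least 2-fold higher in Th17 and 15.2% at least 2-fold lower. Of the 4 members 3 were at least 2-fold higher and 0 at least 2-fold lower. miR-99a-5p and miR-125b-5p, both under 1 CPM in Th0, are in this range through their Th17 reads, so that this count is a description and no support. Among the 244, a higher ratio was seen for 5 miRNAs in the case of miR-99a-5p, for 9 in that of miR-125b-5p and for 27 in that of miR-100-5p. Entry through Th17 reads also favours a high place by ratio, so these places too are a description and no support.

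**Figure D4:**
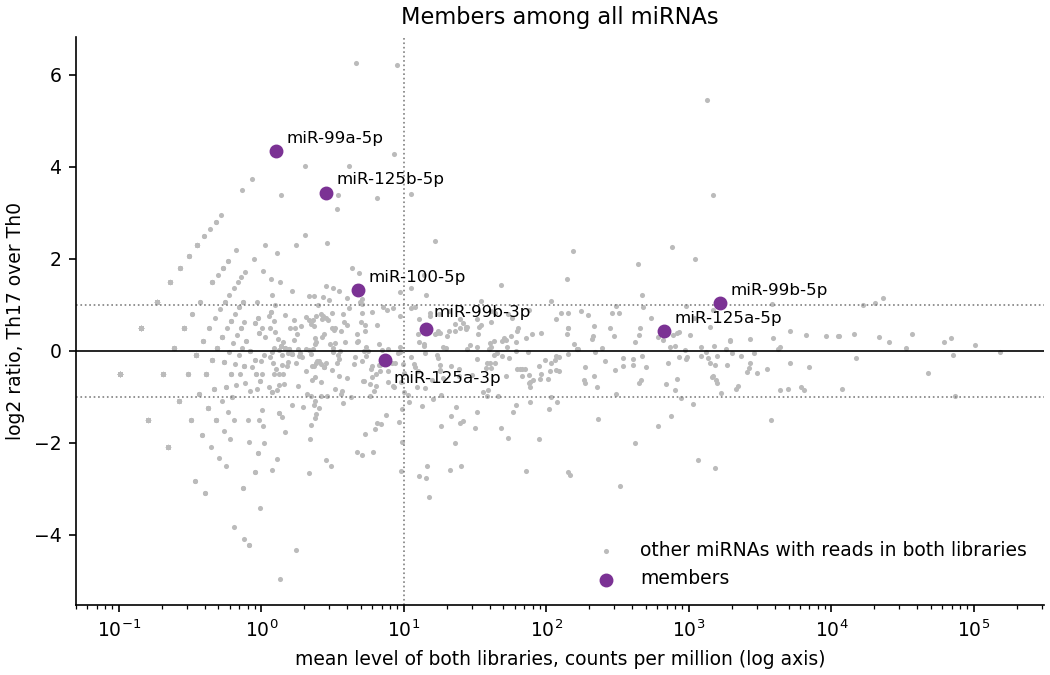
Mean level of both libraries (CPM, log axis) against the log2 ratio of Th17 over Th0 for all miRNAs with reads in both libraries (grey) and the 7 members (purple); dotted lines mark 10 CPM and 2-fold. miR-99b-5p sits near the 2-fold line at high level, and miR-99a-5p and miR-125b-5p sit at log2 ratios of 4.34 and 3.44 at low level, where the grey points spread widely.

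Set against the abundant member of the same seed, miR-99a-5p and miR-125b-5p were also more frequent in Th17. There were 10.9 reads of miR-99a-5p per 10000 reads of miR-99b-5p in Th17 and 1.10 in Th0, a quotient of 9.88 (1.64 to 404). For miR-100-5p this number was 30.9 in Th17 and 25.4 in Th0, and the quotient of 1.22 (0.757 to 2.02) spanned 1. miR-100-5p and miR-99b-5p therefore could not be told apart in their ratios at this depth. There were 67.5 reads of miR-125b-5p per 10000 reads of miR-125a-5p in Th17 and 8.38 in Th0, a quotient of 8.05 (2.99 to 30.5). miR-125b-5p made up 0.670% (0.514 to 0.859%) of the miR-125 5p reads in Th17 and 0.0837% (0.0228 to 0.214%) in Th0.

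The remaining products of the loci on chromosomes 16 and 9 were at or near 0 reads. Passenger arms differ between the loci where guides do not, and so 2 of them are shown with their seeds in capitals.
miR-125b-2-3p: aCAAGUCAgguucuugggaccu
miR-125b-1-3p: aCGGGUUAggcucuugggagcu

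miR-125b-2-3p, from chromosome 16, had 7 reads in Th17 and 1 read in Th0, and miR-125b-1-3p, from chromosome 9, had 1 read in Th17 and 0 in Th0. miR-99a-3p had 1 read in Th17 and 0 in Th0. miR-100-3p, let-7c-1-3p and let-7a-2-3p were listed in neither library, which allows up to 0.251 CPM in Th17 and 0.359 CPM in Th0 at 3 reads each. The let-7 guides with a gene at these loci, let-7c-5p and let-7a-5p, were abundant, with 2924 CPM in Th17 and 2452 CPM in Th0 for let-7c-5p and 12612 CPM in Th17 and 10084 CPM in Th0 for let-7a-5p. Their ratios were 1.19 (1.17 to 1.21) and 1.25 (1.24 to 1.26). Both guides are also made by a second gene elsewhere, and the passenger arms of those genes were listed. let-7c-2-3p had 94 reads in Th17 and 79 reads in Th0, and let-7a-1-3p had 89 reads in Th17 and 75 reads in Th0. The RefSeq sequences of these passenger arms are identical over 22 bases, so their reads cannot be divided. The share of let-7c-5p and let-7a-5p that came from the miR-99a and miR-100 loci was therefore not measured.

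Markers of other cell types were read beside the 3 rare members. All 7 markers of the stromal and endothelial list were listed, and 4 had intervals above 1 and 2 below 1. The 4 were miR-143-3p (73 reads in Th17 and 6 in Th0), miR-199a-3p (142 reads in Th17 and 10 in Th0), miR-199a-5p (93 in Th17 and 4 in Th0) and miR-214-3p (19 in Th17 and 1 in Th0), all known from fibroblasts or smooth muscle, with ratios of 8.49 to 16.2. miR-145a-5p, from the same transcript as miR-143, had 1 read in Th17 and 1 in Th0. These 5, split from the list after their values were seen, summed to 27.4 CPM in Th17 and 2.63 CPM in Th0. Their ratio of 10.4 depends on that split, so it is a description and no support. The endothelial miR-126a-3p and miR-126a-5p went the other way, to 85.9 CPM in Th17, against 191 CPM in Th0 (ratio 0.449, 0.415 to 0.486). The sum of the whole list was therefore lower in Th17, with 113 CPM in Th17 and 194 CPM in Th0 (ratio 0.585, 0.544 to 0.629).

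The myeloid marker miR-223-3p had 81 reads in Th17 and 28 reads in Th0, and both myeloid markers summed to 6.93 CPM in Th17 and 3.35 CPM in Th0 (ratio 2.07, 1.33 to 3.30). miR-223-5p was at 0 reads in Th0. The 4 erythroid markers summed to 170 CPM in Th17 and 164 CPM in Th0. Most of this was miR-486a-5p, with 1995 reads in Th17 and 1360 in Th0 (ratio 1.02, 0.955 to 1.10). The 2 intervals above 1 were those of miR-451a (24 reads in Th17 and 6 in Th0) and miR-144-5p (16 in Th17 and 1 in Th0). miR-144-3p had 2 reads in Th17 and 0 in Th0. The 5 epithelial markers summed to 208 CPM in Th17 and 387 CPM in Th0, with 1 interval above 1 and 4 below. The part of other cell types in the reads of miR-99a-5p, miR-100-5p and miR-125b-5p was not tested.

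**Figure D5:**
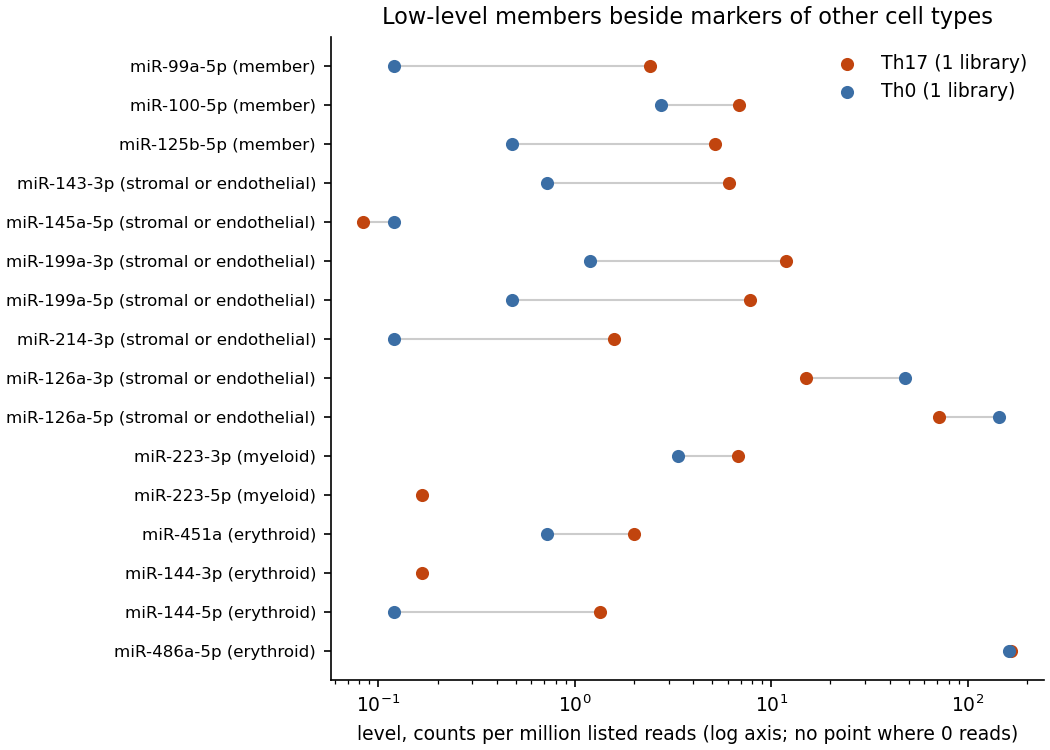
Levels in CPM (log axis) of the 3 rare members and of the stromal or endothelial, myeloid and erythroid marker miRNAs in the Th17 and the Th0 library; no point is drawn for 0 reads. miR-99a-5p, miR-125b-5p, the stromal miR-143-3p, miR-199a-3p, miR-199a-5p and miR-214-3p and the erythroid miR-451a and miR-144-5p lie below 2 CPM in Th0 and above 1 CPM in Th17. The stromal miR-145a-5p lies below 1 CPM in both libraries, and the miR-126a arms lie lower in Th17. miR-100-5p and the myeloid miR-223-3p lie above 2 CPM in both libraries. The erythroid miR-486a-5p lies at 167 CPM in Th17 and 163 CPM in Th0. The epithelial markers, with 1 interval above 1 and 4 below, are not drawn.

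The miR-125 seed is not restricted to the members. Of the 5 mature miRNAs with CCCUGAG in the RefSeq table, miR-6367 and miR-6394 had 0 reads in both libraries, and miR-351-5p, encoded on the X chromosome, was abundant. It was found by its seed and not chosen for its values. miR-351-5p had 8101 reads in Th17 and 3461 reads in Th0, or 676 CPM in Th17 and 414 CPM in Th0, a ratio of 1.63 (1.57 to 1.70). These reads were fewer than those of miR-125a-5p in both libraries. With it, the miR-125 seed summed to 1449 CPM in Th17 and 986 CPM in Th0, a ratio of 1.47 (1.43 to 1.51), where the members alone gave 772 CPM in Th17 and 572 CPM in Th0, a ratio of 1.35 (1.30 to 1.40).

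The miRNAs nearest in ratio to the abundant members were named by their distance in log2 ratio over the 2 libraries, among 158 miRNAs averaging 100 CPM or more. Nearest to miR-99b-5p were miR-29a-3p (27051 CPM in Th17 and 13253 CPM in Th0, distance 0.0046), miR-146a-5p (5161 CPM in Th17 and 2552 CPM in Th0, distance 0.018) and miR-1948-3p (146 CPM in Th17 and 69.4 CPM in Th0, distance 0.042). Nearest to miR-125a-5p were miR-103-3p (5842 CPM in Th17 and 4344 CPM in Th0, distance 0.0021), miR-1839-5p (970 CPM in Th17 and 735 CPM in Th0, distance 0.026) and miR-212-3p (929 CPM in Th17 and 712 CPM in Th0, distance 0.042). With 2 libraries such nearness is a description of 1 ratio each.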

How the data were processed

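The authors deposited, for each of the 2 libraries, a table of mature miRNAs with whole-number counts of reads, not normalized, and a TPM value. The deposited TPM values are the counts divided by 1 total per library, 13070648 reads for Th17 and 9072995 for Th0, per the file values. Reads were placed on mm10, per the submitters' processing notes. The sources used here do not give the trimming, aligner, annotation release, mismatches or treatment of multiply matching reads. Libraries were made with TruSeq small RNA chemistry and sequenced on an Illumina HiSeq instrument, per the labels' protocols.

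Counts were divided by each column sum (CPM), and a miRNA missing from a table was taken as 0 reads, since the smallest listed count was 1. Ratios are Th17 over Th0 without a pseudocount, and their 95% intervals are exact and conditional on both counts (Clopper-Pearson). Intervals of levels are exact Poisson, of shares exact binomial, and of quotients exact conditional intervals of the 2 by 2 counts. Reads were amplified and carry no molecular identifiers, so intervals and floors cover counting error only. A count of 0 was taken to allow 3 reads. Alternatives used edgeR 4.0.16 and DESeq2 1.42.0 for scaling only (R 4.3.3), and scipy 1.17.1 gave the intervals. Only the code of the ratio intervals was tested on simulated data, at 10 CPM or more, which leaves out the levels of the 4 members below that.

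The members, lists and tests were chosen with earlier results of these data known. Named miRNAs are the members, the other products of the precursors at their loci, the marker lists, the miRNAs sharing a member seed, and the 3 nearest in log2 ratio to each member of at least 100 CPM. Hairpin positions are from GENCODE M21, and mature sequences (7 of 7 members matched) from RefSeq GRCm38.p6.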

Additional observations from a re-analysis of the deposited data

How the results depend on the processing

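The members' ratios were recomputed with other totals and with 0.5 CPM added, and no ratio whose interval excluded 1 changed direction. Without the 10 most abundant miRNAs in the totals, the interval of miR-99b-3p no longer excluded 1 (0.983 to 1.61). Under DESeq2 size factors the ratios moved to 2.16 (miR-99b-5p), 1.42 (miR-125a-5p), 1.90 (all members summed), 2.17 (miR-99/100 5p) and 1.43 (miR-125 5p). Without the 10 most abundant miRNAs in the totals, which lowers every log2 ratio by 0.13, they were 1.87, 1.23, 1.65, 1.87 and 1.23, and the count of members at least 2-fold higher among those of at least 10 CPM was 0 in place of 1. That count was 4 with no minimum and 3 at a mean of 1 to 10 CPM, a range added after seeing the data. Without the most abundant member the sums had ratios of 1.35 (all members), 3.23 (miR-99/100 5p) and 10.8 (miR-125 5p). Over all miRNAs, 20 were at least 2-fold higher and 39 lower, and 15 and 49 without the 10 most abundant in the totals. These counts were 50 and 76 at 1.5-fold, 269 and 263 with no minimum, and 13 and 15 at a mean of at least 100 CPM, and 40 were higher at 1 to 10 CPM. With passenger arms in the denominator, miR-99b-5p held 98.9% (98.7 to 99.0%) of its family in Th17 and 98.6% (98.4 to 98.9%) in Th0. For miR-125a-5p the share was 98.4% in Th17 and 98.5% in Th0. The order of the libraries turned for miR-99b-5p, but its intervals overlapped with either denominator, so neither order is clear. With 0.5 CPM added, the ratio of miR-99a-5p was 4.72 and that of miR-125b-5p 5.80. Of 92 recomputed values, 65 stayed within counting error or within 1.5 times for counts. A wide interval is easily stayed within, as that of miR-99a-5p (3.36 to 827), so this tally does not measure how stable the ratios are. No paired analysis was possible because each group has 1 library, so no library could be left out either. Depth limits miR-99a-5p most, with 1 read in Th0.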
